A study of Mus musculus with 6 samples.

Results

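The 10 genes described here are ones that basophils or mast cells are known for, among the 22180 genes measured with a probe set of their own in sorted mouse haematopoietic stem cells. They were chosen by symbol: the granule proteases Mcpt8, Prss34 and Cpa3, the IgE receptor chains Fcer1a and Ms4a2, the histamine enzyme Hdc, the cytokines Il6, Il4 and Csf1, and the steroid enzyme Cyp11a1. All 10 were measured. The choice was made with the values of these arrays known, around the uneven level of Mcpt8 over the pools. That pattern is therefore given as a description, and nothing is read from a test of it.

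The arrays held 3 pools of CCR2-positive and 3 pools of CCR2-negative haematopoietic stem cells, sorted from C57BL/6J mice, and each pool drew on the marrow of 20 mice. No mutant allele, treatment or age is named in the labels, and the remaining sort markers were not given in the sources used here. According to the design the pools are biological replicates. Values are the authors' RMA values on a log2 scale, so 1 unit is a factor of 2, and a difference is the CCR2-positive mean minus the CCR2-negative mean, with its standard error.

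Basophils, which circulate in blood, and mast cells, which settle in tissues, act in allergy and in defence against parasites. Both carry the high-affinity IgE receptor, store histamine and proteases in granules, and release interleukin 4 and other cytokines when the receptor is cross-linked. In the mouse, Mcpt8 and Prss34 are proteases of basophils, while Cpa3 is shared by mast cells, basophils and their progenitors. GATA2 is a transcription factor that both lineages need.

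The promoters of 3 protease genes are shown, because Mcpt8 and Prss34 had their highest values in the same pools and Cpa3 did not. Each runs from 250 bases before to 50 after the start site in the RefSeq table of GRCm38.p6, 5′ to 3′ on the gene's strand, and capitals mark the letters GATA on either strand, which read TATC when the match lies on the other strand. The Mcpt8 window is chr14:56085148-56085447 on the minus strand, the Prss34 window is chr17:25298144-25298443 on the plus strand, and the Cpa3 window is chr3:20242132-20242431 on the minus strand.
Mcpt8: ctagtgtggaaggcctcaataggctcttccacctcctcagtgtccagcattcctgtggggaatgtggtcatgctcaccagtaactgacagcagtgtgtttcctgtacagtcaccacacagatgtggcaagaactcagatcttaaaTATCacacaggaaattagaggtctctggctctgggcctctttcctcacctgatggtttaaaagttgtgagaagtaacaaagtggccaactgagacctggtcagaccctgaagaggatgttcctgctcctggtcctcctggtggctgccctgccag
Prss34: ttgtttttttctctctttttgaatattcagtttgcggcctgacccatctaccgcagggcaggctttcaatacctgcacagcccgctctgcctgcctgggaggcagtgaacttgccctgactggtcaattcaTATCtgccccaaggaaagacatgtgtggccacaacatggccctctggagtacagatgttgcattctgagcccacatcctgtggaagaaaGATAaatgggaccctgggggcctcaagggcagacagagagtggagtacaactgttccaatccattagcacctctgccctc
Cpa3: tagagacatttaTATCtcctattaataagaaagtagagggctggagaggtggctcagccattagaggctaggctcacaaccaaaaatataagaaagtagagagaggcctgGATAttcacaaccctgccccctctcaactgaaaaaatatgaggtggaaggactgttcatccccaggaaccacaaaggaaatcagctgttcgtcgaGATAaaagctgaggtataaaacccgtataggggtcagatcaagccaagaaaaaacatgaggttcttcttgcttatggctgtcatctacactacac

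The Mcpt8 window held 1 match, the Prss34 window 2 and the Cpa3 window 3. Of 32851 promoter windows in the table, 57.9% held at least 1 match, 28.7% at least 2 and 12.6% at least 3. A match is a run of letters and shows no binding.

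Mcpt8, which encodes mast cell protease 8, had the most uneven level of the 10 genes. It had log2 values of 5.96, 8.76 and 9.09 in CCR2-positive replicates 1, 2 and 3, against 5.89, 6.41 and 6.36 in CCR2-negative replicates 1, 2 and 3. CCR2-positive replicates 2 and 3 stood far above the other 4 pools, and CCR2-positive replicate 1 lay among the CCR2-negative pools, so the groups overlapped. Relative to CCR2-positive replicate 1, the level was 6.95-fold higher in replicate 2 and 8.72-fold higher in replicate 3. Its whole range was 3.20, and 11 of the 22180 genes (0.0496%) had a larger one, where the median gene had a range of 0.452. The gap between the lower of CCR2-positive replicates 2 and 3 and the highest of the other 4 pools was 2.35, and 0 other genes had a larger gap of this kind. Those 2 pools were picked by the values of Mcpt8 itself, so the rank is a description only.

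Prss34, which encodes mast cell protease 11, was highest in the same pools. Its values were 6.07, 7.80 and 7.08 in CCR2-positive replicates 1 to 3, against 6.45, 6.60 and 6.40 in CCR2-negative replicates 1 to 3. The order of the high pools was reversed relative to Mcpt8, with replicate 2 above replicate 3, and CCR2-positive replicate 1 was the lowest of all 6. The level was 2.29-fold above the highest CCR2-negative pool in CCR2-positive replicate 2 and 1.39-fold above it in replicate 3. The gap to the other 4 pools was 0.48, and 11 genes had a larger one, Mcpt8 among them.

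Cpa3, which encodes carboxypeptidase A3, did not have this pattern. Its values were 4.68, 5.67 and 5.53 in CCR2-positive replicates 1 to 3, against 5.69, 5.78 and 5.42 in CCR2-negative replicates 1 to 3. CCR2-positive replicate 1 stood 0.74 below the lowest CCR2-negative pool, and the other 2 CCR2-positive pools lay inside the CCR2-negative range. All 3 protease genes were thus higher in CCR2-positive replicates 2 and 3 than in CCR2-positive replicate 1, by 1.98-fold and 1.81-fold for Cpa3.

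**Figure D1:**
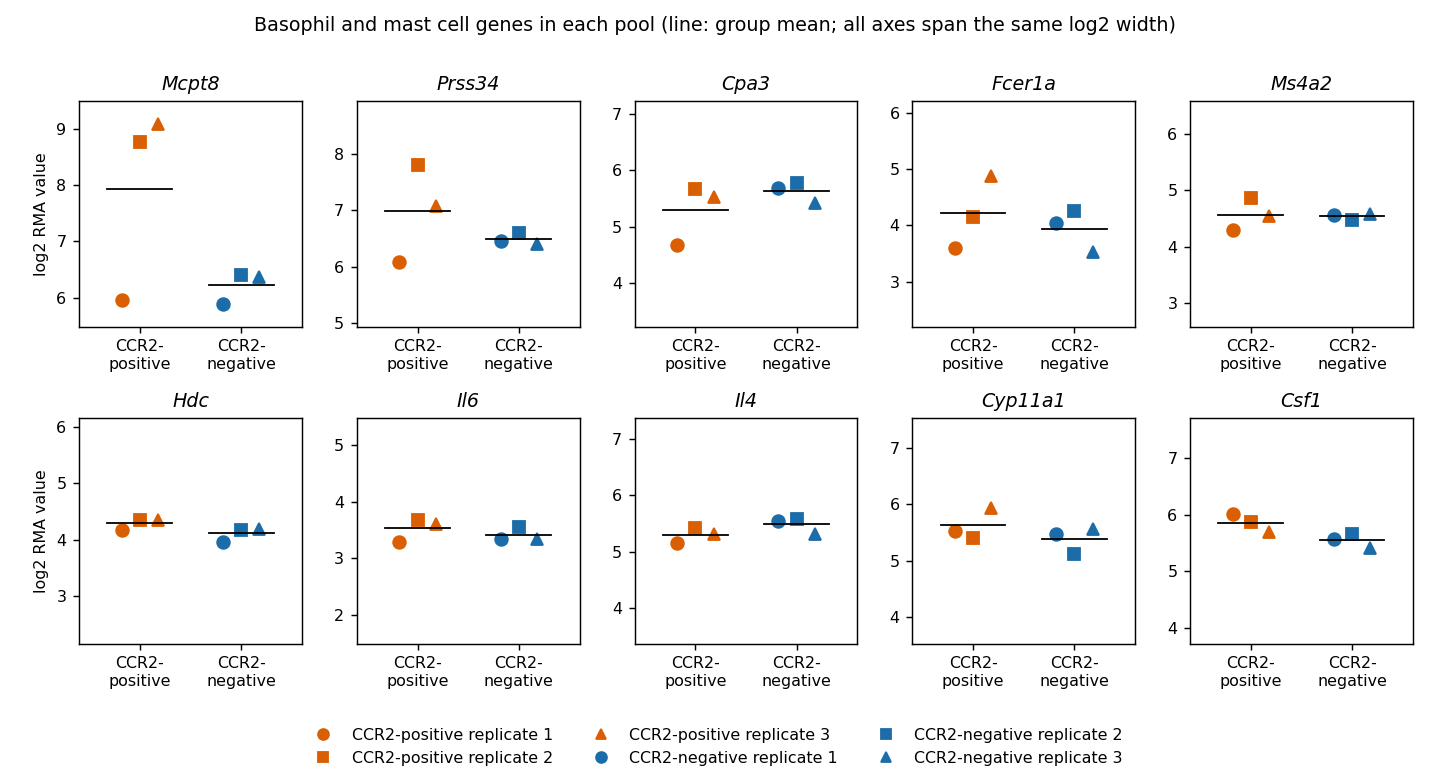
Log2 RMA value (vertical axis, the same span in every panel) of the 10 genes in the 3 CCR2-positive pools (orange, left) and the 3 CCR2-negative pools (blue, right), with the mark shape giving the replicate number and a line at the group mean. Mcpt8 lies at 8.76 and 9.09 in CCR2-positive replicates 2 and 3 and between 5.89 and 6.41 in the other 4 pools, while 6 of the 10 genes span less than 1 unit.

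The chains of the IgE receptor had ranges of 1.36 for Fcer1a and 0.57 for Ms4a2, beside 1.10 for Cpa3. Fcer1a, the chain that binds IgE, had 3.60, 4.15 and 4.88 in CCR2-positive replicates 1 to 3, against 4.04, 4.26 and 3.52 in CCR2-negative replicates 1 to 3. CCR2-positive replicate 3 was the highest pool, 1.54-fold above the highest CCR2-negative pool, and CCR2-positive replicate 2 lay inside the CCR2-negative range. Ms4a2, the chain that amplifies the signal, had 4.29, 4.87 and 4.54 in CCR2-positive replicates 1 to 3, against 4.57, 4.48 and 4.57 in CCR2-negative replicates 1 to 3. Here CCR2-positive replicate 2 was the highest and replicate 1 the lowest pool. Hdc, which makes histamine from histidine, had 4.18, 4.35 and 4.35 in CCR2-positive replicates 1 to 3, against 3.97, 4.18 and 4.19 in CCR2-negative replicates 1 to 3. CCR2-positive replicates 2 and 3 were again on top, but by 0.16, and the range of 0.38 was smaller than that of 62.5% of all genes.

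The cytokine genes varied little. Il6, a cytokine of inflammation, had 3.29, 3.68 and 3.61 in CCR2-positive replicates 1 to 3, against 3.35, 3.56 and 3.34 in CCR2-negative replicates 1 to 3. Its 2 highest pools were also CCR2-positive replicates 2 and 3, by 0.0491. Il4, the type 2 cytokine that basophils are known to release, had 5.16, 5.42 and 5.31 in CCR2-positive replicates 1 to 3, against 5.55, 5.59 and 5.31 in CCR2-negative replicates 1 to 3, and its highest pools were CCR2-negative replicates 2 and 1.

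Csf1, the growth factor of macrophages, ran differently from the proteases. It had 6.02, 5.88 and 5.69 in CCR2-positive replicates 1 to 3, against 5.56, 5.66 and 5.41 in CCR2-negative replicates 1 to 3. It was highest in the pool where Prss34 and Cpa3 were lowest, and the groups did not overlap, with a gap of 0.03 between CCR2-positive replicate 3 and CCR2-negative replicate 2.

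Cyp11a1, which starts steroid synthesis by cutting the side chain of cholesterol, was measured by 2 probe sets. The brighter one, used here, had 5.53, 5.41 and 5.94 in CCR2-positive replicates 1 to 3, against 5.48, 5.12 and 5.57 in CCR2-negative replicates 1 to 3. The other had 5.11, 4.91 and 4.91 in CCR2-positive replicates 1 to 3, against 5.13, 5.31 and 5.25 in CCR2-negative replicates 1 to 3. Their differences had opposite signs, 0.24 ± 0.19 and -0.25 ± 0.11 in the limma fit over all probe sets, so no direction is given for this gene.

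Of the 10 genes, 4 had their 2 highest values in CCR2-positive replicates 2 and 3 (Mcpt8, Prss34, Hdc and Il6), against 9.32% of all genes. This arrangement was part of how the genes came to be chosen, so nothing is read from the count. CCR2-positive replicate 1 was the lowest pool for 5 of the 10, where it was the lowest for 12.2% of all genes. A range above 1 was found for 4 of the 10 (Mcpt8, Prss34, Fcer1a and Cpa3), against 5.91% of all genes. Because the choice was made with the values known, nothing is read from these counts either. Cpa3, Il4 and Csf1 did not have their 2 highest values in CCR2-positive replicates 2 and 3, so not all 10 genes had this arrangement. Neither IgE receptor chain had it, but Fcer1a and Ms4a2 lay at percentiles 13.7 and 22.8 of mean level and may carry little signal. The same holds for Hdc and Il6, which had it, at percentiles 15.9 and 5.54. In pools of sorted cells, more cells of a type and more RNA per cell cannot be told apart.

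The comparison that the design asks for is between CCR2-positive and CCR2-negative pools, and 0 of the 10 genes passed it. In the limma fit over 22180 genes, 0 genes (0%) had an adjusted p under 0.05, and 2716 had an unadjusted p under 0.05. Mcpt8 averaged 7.94 ± 1.72 in CCR2-positive and 6.22 ± 0.29 in CCR2-negative pools (SD, n = 3 each). The difference of 1.72 ± 0.70, or 3.28-fold, had a 95% interval of 0.13 to 3.30, with a limma unadjusted p of 0.0374 and adjusted p of 0.375. It stood on 2 of the 3 CCR2-positive pools. Without CCR2-positive replicate 1 the difference was 2.70 and the limma adjusted p was 0.0222, without CCR2-positive replicate 3 they were 1.14 and 0.582, and with array weights 0.94 and 0.567. The first of these settings leaves only CCR2-positive pools with a high level. The genes were chosen around that level, so nothing is read from its p-value.

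Csf1 averaged 5.86 ± 0.16 in CCR2-positive and 5.54 ± 0.12 in CCR2-negative pools (SD, n = 3 each). Its difference of 0.32 ± 0.12, or 1.25-fold, had a limma unadjusted p of 0.0307 and adjusted p of 0.357. The unadjusted p was 0.0671 after a second quantile normalization, 0.0637 with median centring and 0.0827 with cyclic loess. That of Mcpt8 was 0.106 with trend and robust settings and 0.201 with array weights. Mcpt8 and Csf1 were the 2 of 10 genes at an unadjusted p under 0.05, where 12.2% of all genes reached it. Csf1 was the 1 of 10 whose groups did not overlap, against 18.6% of all genes.

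For the others the interval of the difference included 0. That of Prss34, 0.50 ± 0.36, ran from -0.32 to 1.32. It was 0.96 without CCR2-positive replicate 1 (limma adjusted p = 0.208), 0.09 without CCR2-positive replicate 2 and 0.18 with array weights. The interval of Fcer1a, 0.27 ± 0.31, ran from -0.43 to 0.98. Cpa3 differed by -0.34 ± 0.24 (interval -0.89 to 0.22), which was -0.03 without CCR2-positive replicate 1. Il4 differed by -0.18 ± 0.12 (interval -0.46 to 0.09). Hdc differed by 0.18 ± 0.11, Il6 by 0.11 ± 0.13 and Ms4a2 by 0.03 ± 0.15. The sign of Ms4a2 turned under a second quantile normalization, median centring and cyclic loess, and that of Fcer1a without CCR2-positive replicate 3. In all, 8 of the 10 differences were above 0, Cyp11a1 among them by its brighter probe set, with a median of 0.21, where 56.0% of all genes were above 0 with a median of 0.03. With probe sets averaged per gene, which turns Cyp11a1 to -0.0075, 7 were above 0 and 3 below, and the median was 0.15.

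**Figure D2:**
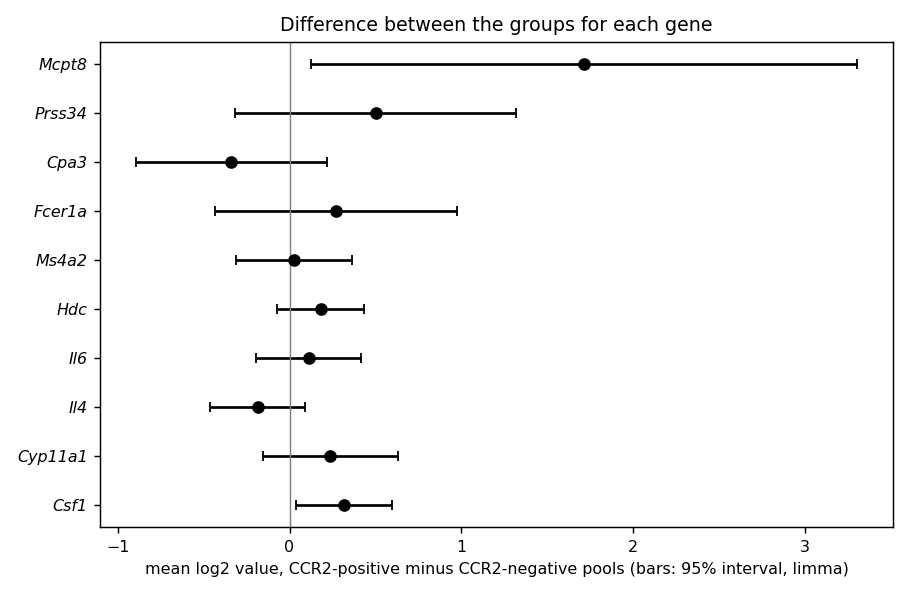
Difference of the mean log2 value, CCR2-positive minus CCR2-negative (horizontal axis), for each gene, with points at the limma estimate over 3 pools a group and bars for the 95% interval. The intervals of Mcpt8 (0.13 to 3.30) and Csf1 (0.04 to 0.60) lie above 0, and that of Mcpt8 is the widest.

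The genes whose pattern was nearest to Mcpt8 were found by distance: each gene's 6 values minus their mean were set against those of Mcpt8, and the root mean square of the 6 gaps was taken in log2 units. A flat gene would lie 1.32 away. The nearest was Eif3j1, a translation initiation factor subunit, at 0.801, followed by H2-Q10, a class I histocompatibility gene, at 0.834 and by Prss34 at 0.875. Pnp2, a purine nucleoside phosphorylase gene, lay at 0.912 and the transcript Asb17os at 0.933. Spon2, a secreted matrix protein gene, lay at 0.944, the nuclease gene Endod1 at 0.956 and the erythroid gene Tspo2 at 0.963. In all, 31 genes lay within 1 unit. The largest range among the 8 was 2.18, that of Asb17os, against 3.20 for Mcpt8. H2-Q10 had 4.90, 6.60 and 6.88 in CCR2-positive replicates 1 to 3, against 5.89, 5.66 and 5.97 in CCR2-negative replicates 1 to 3, so it too was low in CCR2-positive replicate 1. Eif3j1 had 5.67, 7.24 and 7.10 in CCR2-positive replicates 1 to 3, against 5.70, 6.36 and 6.49 in CCR2-negative replicates 1 to 3. Asb17os, Spon2, Endod1 and Tspo2 were instead above all CCR2-negative pools in CCR2-positive replicate 1 as well.

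**Figure D3:**
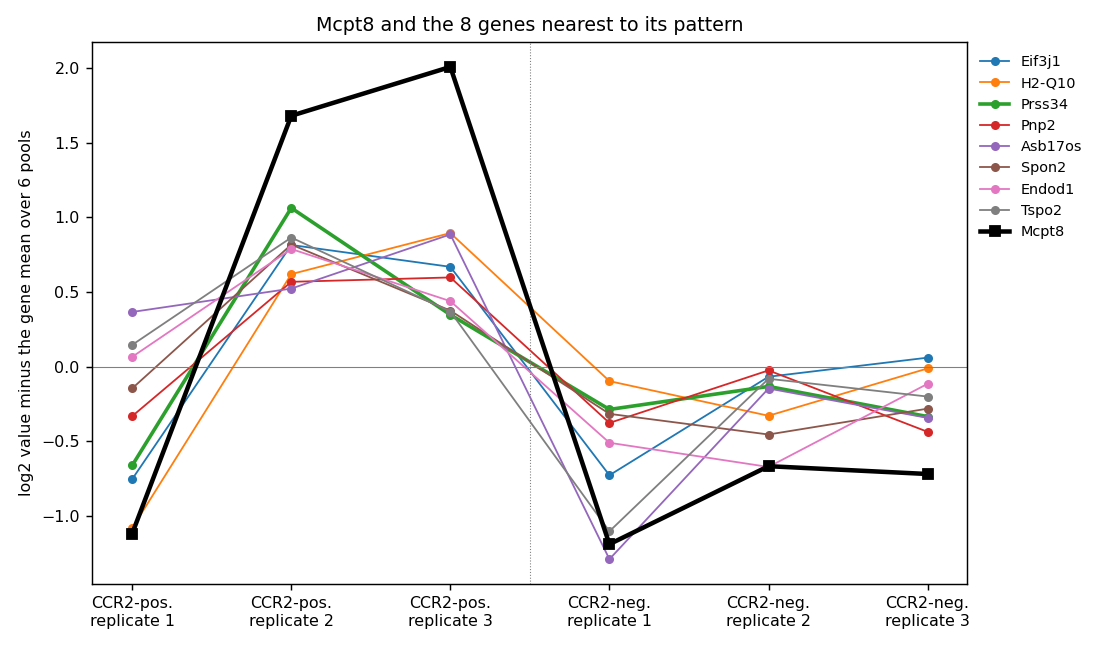
Log2 value minus the gene's mean over the 6 pools (vertical axis) in each pool (horizontal axis, CCR2-positive left, CCR2-negative right) for Mcpt8 (black) and the 8 genes nearest to it. All 9 lines are above 0 in CCR2-positive replicates 2 and 3, and that of Mcpt8 reaches 2.01.

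Most measured neighbours on the chromosome did not show the pattern, but several of them had low signal. Mcpt8 lies in a cluster of granule protease genes on chromosome 14, with 5 measured genes taken on either side. Among these, the mast cell proteases Mcpt1, Mcpt2, Mcpt4 and Mcpt9 had ranges of 0.19 to 0.36. They lay at percentiles 7.14 to 10.1 of mean level and may carry little signal, so their flat values cannot show whether they shared the pattern. The next gene, Ctsg, which encodes cathepsin G of neutrophil precursors, had a range of 2.17. Its values were 7.38, 9.32 and 8.12 in CCR2-positive replicates 1 to 3, against 7.15, 9.07 and 7.95 in CCR2-negative replicates 1 to 3, so replicate 2 was highest in both groups. Prss34 lies beside the tryptase genes on chromosome 17, and the ranges of its 10 measured neighbours were 0.21 to 0.91. Of these 20 neighbours 1, Baiap3 next to Prss34, had its 2 highest values in CCR2-positive replicates 2 and 3, against 9.32% of all genes.

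**Figure D4:**
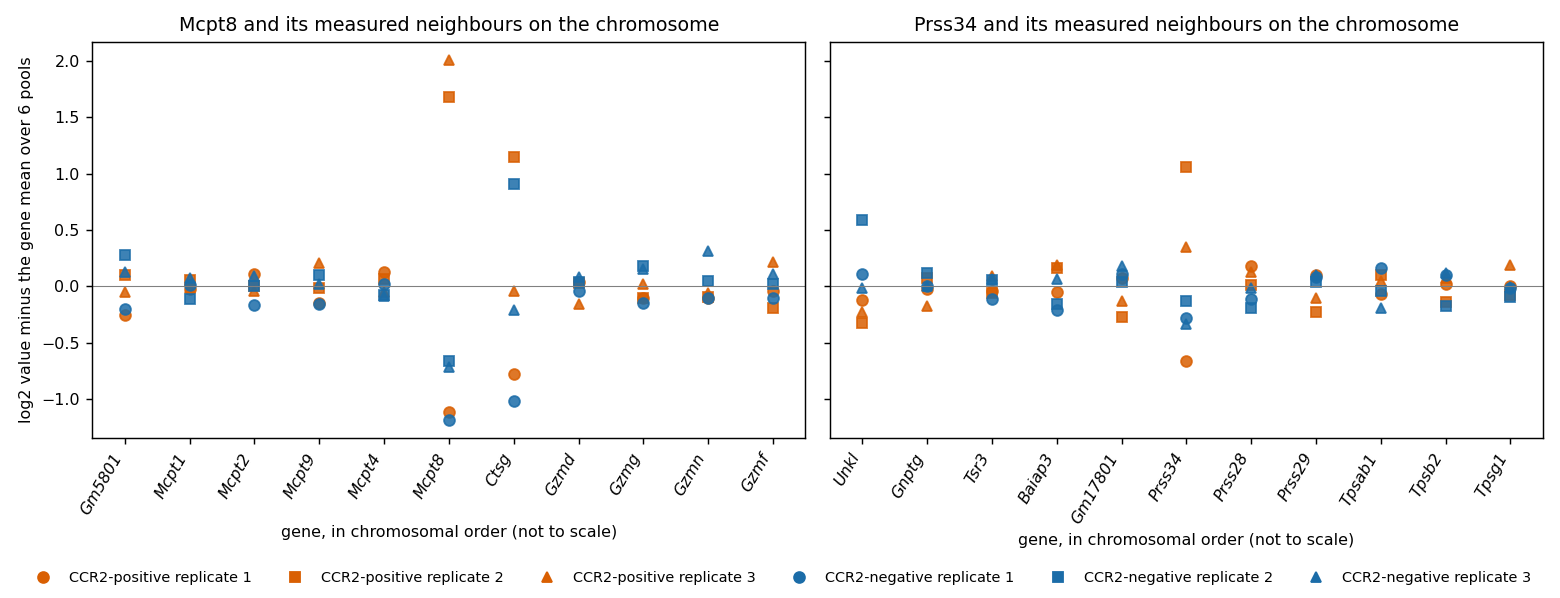
Log2 value minus the gene's mean over the 6 pools (vertical axis) for Mcpt8 (left) and Prss34 (right) and the 5 measured genes on either side of each, in chromosomal order and not to scale, with orange marks for CCR2-positive and blue marks for CCR2-negative pools. Apart from Ctsg, with a range of 2.17, and Unkl, with 0.91, the neighbours lie close to 0 in every pool.

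Other genes of basophils and mast cells were read from 6 lists, with 79 of 85 symbols measured. In the limma fit 0 of the 79 had an adjusted p under 0.05. At an unadjusted p under 0.05 there were 3 higher (background 5.63%) and 13 lower (background 6.61%). The groups did not overlap for 5 that were higher (background 10.8%) and for 12 that were lower (background 7.88%). The 2 highest values lay in CCR2-positive replicates 2 and 3 for 10 of the 79, against 9.32% of all genes.

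Of 13 genes that relay the IgE receptor signal 11 were lower and 2 higher, the median being -0.33. Fyn, a kinase next to the receptor, had 6.21, 6.31 and 6.30 in CCR2-positive replicates 1 to 3, against 6.88, 6.81 and 6.73 in CCR2-negative replicates 1 to 3. The groups did not overlap (-0.53 ± 0.10, limma adjusted p = 0.177). The phospholipase Plcg2 (-0.43 ± 0.13, limma adjusted p = 0.276) and the adaptor Gab2 (-0.52 ± 0.18, limma adjusted p = 0.312) did not overlap between groups either. In all, 3 of the 13 were lower without overlap, against 7.88% of all genes. The adaptor Grap2 was nearest to Mcpt8 in this list, but at a distance of 1.19, where a flat gene would lie 1.32 away. It had 4.94, 5.08 and 5.14 in CCR2-positive replicates 1 to 3, against 4.76, 4.75 and 4.78 in CCR2-negative replicates 1 to 3. Fcer1g, the signalling chain that the IgE receptor shares with other Fc receptors, had 8.66, 8.23 and 7.40 in CCR2-positive replicates 1 to 3, against 7.90, 7.84 and 7.58 in CCR2-negative replicates 1 to 3. Of the pools where Mcpt8 was high, CCR2-positive replicate 3 had the lowest Fcer1g of all, and replicate 2 lay above every CCR2-negative pool.

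Among 12 mast cell protease and granule genes, 8 were higher and 4 lower, with a median of 0.03. The tryptase and chymase genes varied little: Cma1 differed by 0.13 ± 0.11 and Tpsab1 by 0.05 ± 0.12. Slc18a2, which loads amines such as histamine into granules, had 9.003, 8.406 and 8.341 in CCR2-positive replicates 1 to 3, against 9.662, 9.288 and 9.200 in CCR2-negative replicates 1 to 3. It was thus lowest in the pools with high Mcpt8 (difference -0.80 ± 0.20, limma adjusted p = 0.210). Srgn, the proteoglycan core of the granules, differed by -0.37 ± 0.12 (limma adjusted p = 0.277).

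Of 16 receptor and surface genes 8 were higher and 8 lower, with a median of -0.003. Csf2rb2, the beta chain of the mouse interleukin 3 receptor, was the nearest to Mcpt8 in this list, at 1.13, where a flat gene would lie 1.32 away. It had 4.37, 4.88 and 4.96 in CCR2-positive replicates 1 to 3, against 4.50, 4.34 and 4.81 in CCR2-negative replicates 1 to 3. Both high pools were on top, but CCR2-negative replicate 3 lay just under them. Il18rap, a chain of the interleukin 18 receptor, differed by -0.65 ± 0.13 and Cd63, a granule membrane protein gene used to follow degranulation, by -0.45 ± 0.16, with limma adjusted p of 0.177 and 0.319.

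Of 15 transcription factor genes 6 were higher and 9 lower, with a median of -0.02. Gata2 had 8.97, 8.68 and 8.90 in CCR2-positive replicates 1 to 3, against 9.42, 8.99 and 8.87 in CCR2-negative replicates 1 to 3, and did not follow Mcpt8. Ikzf1, a zinc finger factor of blood cells, was nearest to Mcpt8 in this list, at 1.13, where a flat gene would lie 1.32 away. It had 8.39, 9.16 and 8.61 in CCR2-positive replicates 1 to 3, against 8.30, 8.48 and 8.60 in CCR2-negative replicates 1 to 3. Spi1, which encodes the myeloid factor PU.1, differed by -0.32 ± 0.11 (limma adjusted p = 0.320).

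Of 12 other cytokine and chemokine genes 10 were higher and 2 lower, the median being 0.16. The chemokine Ccl6 had 4.73, 4.79 and 4.92 in CCR2-positive replicates 1 to 3, against 4.26, 4.01 and 4.35 in CCR2-negative replicates 1 to 3 (0.61 ± 0.12, limma adjusted p = 0.177). Il5, the growth factor of eosinophils, differed by 0.39 ± 0.10 (limma adjusted p = 0.230). Among 11 genes of lipid mediators and steroid synthesis 6 were higher and 5 lower, with a median of 0.02. Alox5ap, which hands arachidonic acid to 5-lipoxygenase, had 9.49, 9.38 and 9.26 in CCR2-positive replicates 1 to 3, against 10.12, 10.19 and 9.90 in CCR2-negative replicates 1 to 3 (-0.70 ± 0.12, limma adjusted p = 0.177). Pla2g4a, which releases arachidonic acid, differed by -0.56 ± 0.13 (limma adjusted p = 0.183).

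Of 7 eosinophil genes measured, 3 granule genes were high in CCR2-positive replicate 2 and not in replicate 3. Prg2, which encodes the major basic protein of eosinophil granules, had 8.96, 10.12 and 5.62 in CCR2-positive replicates 1 to 3, against 8.27, 8.27 and 8.15 in CCR2-negative replicates 1 to 3. It was the highest in CCR2-positive replicate 2 and far below every other pool in CCR2-positive replicate 3, a range of 4.50. Prg3, a homologue of it, had 5.67, 7.12 and 5.28 in CCR2-positive replicates 1 to 3, against 5.36, 5.31 and 5.38 in CCR2-negative replicates 1 to 3. Epx, the eosinophil peroxidase gene, had 5.40, 6.24 and 5.26 in CCR2-positive replicates 1 to 3, against 5.37, 5.19 and 5.21 in CCR2-negative replicates 1 to 3. Both were highest in CCR2-positive replicate 2 and, in replicate 3, near or inside the range of the CCR2-negative pools. Ear6, an eosinophil ribonuclease gene, had 4.85, 4.41 and 3.64 in CCR2-positive replicates 1 to 3, against 3.89, 4.12 and 3.90 in CCR2-negative replicates 1 to 3, and was highest in CCR2-positive replicate 1. Siglecf, Il5ra and the eosinophil chemokine receptor gene Ccr3 had ranges of 0.31, 0.40 and 0.09. Il5ra, Ccr3 and Ear6 lay at percentiles 14.4, 3.21 and 14.7 of mean level and may carry little signal, while Siglecf lay at 62.1. Of the 7 genes, 0 had their 2 highest values in CCR2-positive replicates 2 and 3, against 9.32% of all genes. None differed between the groups in the limma fit (adjusted p of 0.524 for Prg3 and 0.998 for Prg2).

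**Figure D5:**
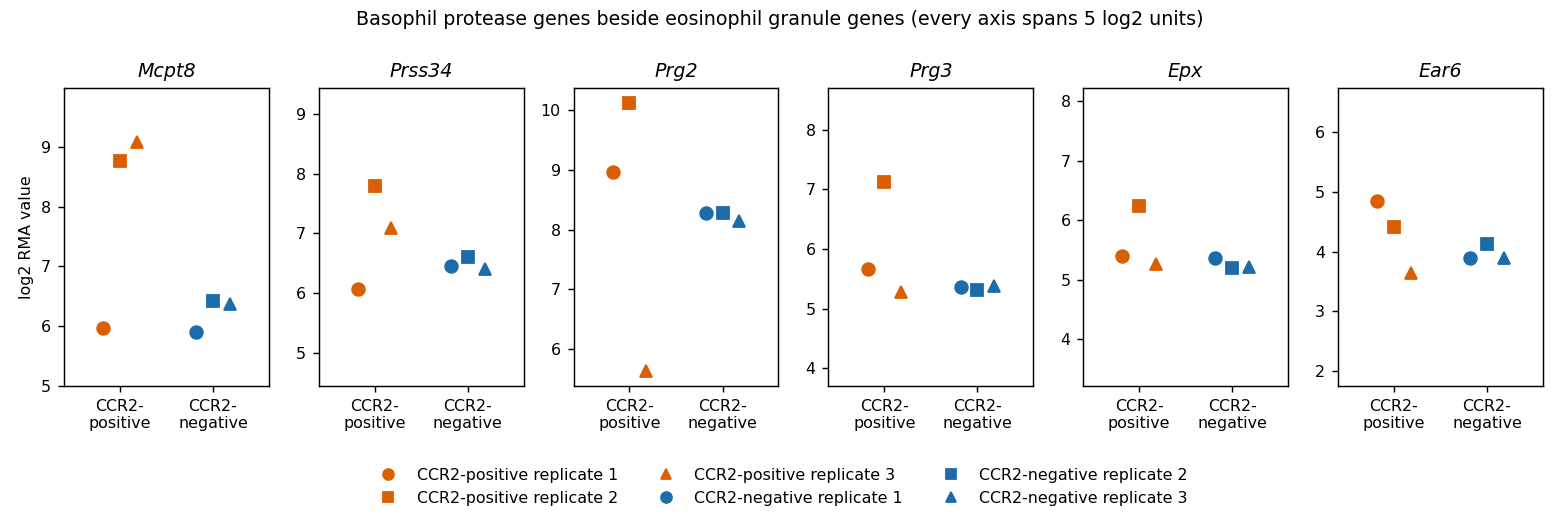
Log2 RMA value (vertical axis, 5 units in every panel) of the basophil protease genes Mcpt8 and Prss34 and of the eosinophil genes Prg2, Prg3, Epx and Ear6 in the CCR2-positive (orange, left) and CCR2-negative (blue, right) pools. CCR2-positive replicate 3 (triangle) is the highest pool for Mcpt8 at 9.09 and the lowest for Prg2 at 5.62.

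Markers of other cells varied over the pools as well. The mean of 10 neutrophil genes was 6.34, 7.12 and 5.87 in CCR2-positive replicates 1 to 3, against 5.67, 6.49 and 6.19 in CCR2-negative replicates 1 to 3. It was thus the highest in 1 of the pools with high Mcpt8 and below 2 of the CCR2-negative pools in the other. The mean of 9 erythroid genes was 9.09 to 9.60 in the CCR2-positive pools, against 8.45 to 8.92 in the CCR2-negative pools, with 9 of 9 higher. That of 7 monocyte genes was 5.76 to 5.83 in the CCR2-positive pools, against 5.42 to 5.57 in the CCR2-negative pools, with 6 of 7 higher. Over all genes 56.0% were higher. Megakaryocyte genes had means of 7.48 to 7.93 in the CCR2-positive pools, against 7.43 to 7.90 in the CCR2-negative pools. B cell genes (5.37 to 5.58 in the CCR2-positive pools, against 5.35 to 5.42 in the CCR2-negative pools) and T and NK cell genes (4.64 to 4.79 in the CCR2-positive pools, against 4.55 to 4.63 in the CCR2-negative pools) varied less. The part of these cells in the level of Mcpt8 was not tested.

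The labelled cell type was checked with 10 measured stem cell markers, whose mean was 6.94 to 7.35 in the CCR2-positive pools, against 7.60 to 7.87 in the CCR2-negative pools, with 10 of 10 lower. Their mean signal ran from percentile 58.3 of all genes for Fgd5 to 98.2 for Kit. Tek stood at 61.7 and Cd34 at 96.4. Signal depends on the probes and is no measure of abundance, and no detection calls were used here, so no marker can be called absent.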

How the data were processed

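Per the labels' protocols, 5 ng of total RNA per pool were amplified. The authors deposited log2 values of 41345 probe sets, made by RMA per the submitters' processing notes, which corrects the background and equalises the arrays, so that differences are relative to other genes. Settings and scanner intensities were not given in the sources used here. Values ran from 2.39 to 13.34, with array medians of 5.48 to 5.58. Amplifying nanogram amounts adds spread between pools, and p-values measure only the spread between these pools.

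Probe sets with 1 gene in the platform annotation were kept (23521), and the brightest was used for each of 22180 genes. The groups were compared with R 4.3.3 and limma 3.58.1 (lmFit, eBayes, two-sided, Benjamini-Hochberg over all genes, threshold 0.05). The median standard error was 0.127. The fit was tested on simulated data. The pools with high Mcpt8 were set against the others value by value. They alone formed the CCR2-positive group of a fit only where CCR2-positive replicate 1 was left out, as each pool was in turn.

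The members, the 14 gene lists and the tests were chosen with earlier results of these data known. The text names the members, the 8 genes nearest to Mcpt8 (2 clones and small RNAs passed over), and in each list up to 3 genes with the smallest p and up to 3 nearest to Mcpt8. Gata2, Fcer1g, Tpsab1, Prg2, Ear6, Siglecf, Il5ra, Ccr3, Kit and the chromosomal neighbours were added after their values were seen. Promoters came from RefSeq (GRCm38.p6), with 10 of 10 matched, and neighbours from its gene order. Python 3.11.15 was used for the descriptions.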

Additional observations from a re-analysis of the deposited data

How the results depend on the processing

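Under 15 alternatives the 10 genes gave 138 values, of which 1 passed an adjusted p of 0.05, Mcpt8 without CCR2-positive replicate 1 (2.70, limma adjusted p = 0.0222). This leaves out the 1 CCR2-positive pool where Mcpt8 was low. The genes were chosen around that uneven level, so nothing is read from this p-value. In that setting 2 genes passed, 1 higher and 1 lower, against 0 with all pools and 0 under every other alternative, and with 1 pool left out the count was 0 to 2. Genes at an unadjusted p under 0.05 numbered 2716 with all pools and 1524 without the genes under the median level, where fewer genes were tested. Of the 10 genes, 2 were at an unadjusted p under 0.05 in limma, 1 after a second quantile normalization, median centring or cyclic loess (Csf1 lost), with array weights or trend and robust settings (Mcpt8 lost), or without the genes under the median level (Csf1 not tested), and 0 to 2 with 1 pool left out, with 0 without CCR2-positive replicate 2, CCR2-negative replicate 1 or CCR2-negative replicate 3. Their median difference was 0.21, 0.08 to 0.24 with 1 pool left out, and 1.11 for the 2 genes above the median level, Mcpt8 and Prss34.

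Of the 138 values 8 changed sign. Fcer1a turned to -0.065 without CCR2-positive replicate 3, with 0.575 as the highest value when 1 pool was left out. Ms4a2 turned to -0.044 after a second quantile normalization, -0.0078 with median centring, -0.051 with cyclic loess, -0.085 with array weights, -0.125 without CCR2-positive replicate 2 and -0.0051 without CCR2-negative replicate 2, with 0.162 as its highest value when 1 pool was left out. Cyp11a1 was -0.0075 as the mean of its probe sets. The cause was not tested, other than for Cyp11a1, whose probe sets disagree.

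Same-numbered pools deviated together by r = 0.035, 0.089 and 0.045 across genes, against -0.102 to 0.068 for pools with different numbers. These values are small and the labels do not say that equal numbers share mice, so the numbers were not taken as pairs. With the replicate block 0 genes passed, and Mcpt8 had a limma unadjusted p of 0.00835 and adjusted p of 0.232. The number of arrays limits precision, and without detection calls 4 of the 10 genes (Fcer1a, Ms4a2, Hdc and Il6), which lie under the 25th percentile of mean level, may carry little signal.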
